A study of Mus musculus with 3 samples.

Results

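The m6A sites described here are the sites of the RAW264.7 list that lay in coding sequence (CDS) within the last exon of a spliced transcript. Each protein-coding gene of GENCODE M21 (GRCm38) was represented by its transcript with the longest CDS, and a site was taken when it lay on the same strand, in the CDS of one such gene, in the last of at least 2 exons. The rule took 4028 of the 19301 listed sites, or 20.9% (95% Wilson interval 20.3 to 21.4%). These were 41.5% (40.6 to 42.5%) of the 9695 sites in the CDS of chosen transcripts. The sites lay in 1704 genes. The series holds miCLIP2 data of poly(A)+ RNA of RAW264.7, a macrophage line from mouse, in 3 biological replicates of untreated cells, with no other strain, treatment or time point in the series. In miCLIP2, RNA is crosslinked by UV light to an antibody against m6A, and reverse transcription then stops beside the crosslinked base or reads through it with a C-to-T transition. The list is pooled over the replicates and gives each site a score of the m6Aboost model, between 0.5 and 1, which describes the model's call and is not a methylation level. It holds no read counts, so the depth behind a site is unknown, and no value has a spread between replicates. Intervals therefore cover counting error only. They treat positions of the same gene as independent, which they need not be. No test over replicates was possible, and none was run between regions.

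m6A is placed on messenger RNA by the METTL3–METTL14 complex, mostly at the A of DRACH, a 5-nt motif in which D is A, G or T, R is A or G, and H is A, C or T. Methylation is known to be frequent around stop codons and in long exons and to be low close to splice junctions, where exon junction complexes sit on the spliced RNA. The coding part of a last exon lies between both landmarks, since it has a junction upstream, none downstream, and ends at the stop codon.

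The sequences below are 21-nt genomic windows of GRCm38 with the site in the centre, written 5′ to 3′ on the strand of the gene, with the 5-nt motif in capitals. The first set is shown because the motif runs into the stop codon: the last letter of each motif is the first base of TGA, and the site lies 2 nt before it.
Terf2, chr8:107070401-107070421, minus strand: cttggcatGAACTgagaaagg
Aars, chr8:111055190-111055210, plus strand: gatgtgaaGAACTgatgggag
Pptc7, chr5:122320860-122320880, plus strand: gagtacacGGACTgatgggcc

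The second set gives sites from the 10 highest scores among the 4028, without those of Serinc3, Slc9a3r1, Rab28, Pnrc1 and Tesk1.
Peak1, chr9:56207394-56207414, minus strand: gaaggcagAAACTttgggggg
Slc52a2, chr15:76541091-76541111, plus strand: agcggaaaGGACTgtgtggac
Fcna, chr2:25625006-25625026, minus strand: aatagcatGAACTgtgcagct
Nsun2, chr13:69633626-69633646, plus strand: ctctattcGAACTtttgtgcc
Zfp131, chr13:119766722-119766742, minus strand: cgcacaagTAACTgtggaaca

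The third set gives the best-scored site of genes with many sites in the last exon.
Ahnak, chr19:9018054-9018074, plus strand: cccaactgGGACTttggagtt
Plec, chr15:76176819-76176839, minus strand: tcagccacGAACTctaccagc
Tlr2, chr3:83838284-83838304, minus strand: aaatgtagAGACTttcagtga
Nrros, chr16:32144691-32144711, minus strand: cggagactGGACTtgtctgga
Il10ra, chr9:45255829-45255849, minus strand: ttgatcctGAACTtggggtac

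The fourth set gives 4 of the 5 best-scored sites outside DRACH, without that of Eif1a, all of them at GGACG, where the last letter of the motif departs from it.
Dcaf5, chr12:80338824-80338844, minus strand: acaacaatGGACGcttgcacc
Cdkn2d, chr9:21289057-21289077, minus strand: caccacagGGACGcttccggt
Fam98a, chr17:75538556-75538576, minus strand: ggttatcaGGACGgtgcttat
Pck2, chr14:55548353-55548373, plus strand: ataactttGGACGctacctgg

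To set the sites against the positions that could have held one, all DRACH A were counted on the chosen transcripts of at least 2 exons in the 4686 genes with an exonic site. The share of DRACH A that were in the list is called the listed share. In the CDS of last exons, 3729 of 28983 DRACH A were listed, a listed share of 12.9% (12.5 to 13.3%), beside 4.64% over all exonic positions of the same transcripts. Internal exons of more than 400 nt had 10.5% (10.2 to 10.9%) and internal exons of up to 400 nt had 0.957% (0.904 to 1.01%). The CDS of first exons had 7.35% (6.77 to 7.99%). The 3′ UTR of last exons had 5.0% (4.89 to 5.11%) along its whole length and 16.6% (16.1 to 17.2%) within 200 nt of the stop codon. The CDS of last exons thus stood above the other coding classes of these transcripts and below the first 200 nt of the 3′ UTR. Their intervals did not overlap. Within 200 nt of the stop codon, the order against the 3′ UTR changed at 100 nt from the junction. Farther away, last-exon CDS had 18.6% (17.7 to 19.4%) and the 3′ UTR 17.1% (16.6 to 17.7%), with intervals that meet. On the junction side the 3′ UTR was higher, with intervals of 9.51 to 12.7% and 5.38 to 6.55%. Genes were kept for having an exonic site, and in 615 of 1704 every exonic site was in last-exon CDS. The part of this in the order was not tested.

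Within genes, last exons were also above internal exons. In 352 genes the CDS of the last exon and that of internal exons of up to 400 nt each held at least 10 DRACH A. There, 1171 of 7810 DRACH A of last exons were listed, or 15.0% (14.2 to 15.8%), against 42 of 11577, or 0.363% (0.269 to 0.490%), in the short internal exons. The last exon had the higher share in 317 of these genes, the lower in 10, and both shares were equal in 25. These genes were kept for having an exonic site anywhere, so a gene whose exonic sites all lay in last-exon CDS had to be counted as higher there. In the 193 of them that also had an exonic site outside both regions, the shares were 16.9% (15.8 to 18.1%) and 0.437% (0.306 to 0.623%), with 161 genes higher in the last exon, 7 lower and 25 equal. In 112 genes with long internal exons the difference was smaller, with 12.1% (10.9 to 13.3%) in the last exon and 6.60% (5.83 to 7.46%) in the long internal exons, and 69 genes were higher in the last exon and 39 lower. Of these, 42 had an exonic site outside both regions, with 17.5% (15.3 to 19.9%) and 11.7% (9.99 to 13.7%), 24 higher and 16 lower. For the 3′ UTR within 200 nt of the stop codon, 11 genes had at least 10 DRACH A in both regions, with 9.22% (6.37 to 13.2%) in last-exon CDS and 3.45% (1.35 to 8.53%) in the 3′ UTR. The intervals overlap, and genes that were kept only for their last-exon CDS sites were not removed, so no order within genes is read from them.

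Distances were counted along the transcript, with the first base of the last exon at 1 nt from the junction and the last base of the CDS at 1 nt from the stop codon. The median site lay 316 nt from the junction (quartiles 154 and 692.5, range 1 to 16366) and 203 nt from the stop codon (quartiles 77 and 529, range 2 to 16541). For 3 sites no stop codon was annotated. Within 100 nt of the junction lay 521 sites, or 12.9% (11.9 to 14%), and within 25 nt lay 64, or 1.59% (1.25 to 2.02%). Genes with many sites weighed on these shares: with only the best-scored site of each gene, 21.8% (19.9 to 23.8%) lay within 100 nt of the junction and 68.3% (66.1 to 70.5%) within 200 nt of the stop codon. Within 200 nt of the stop codon lay 1999 of 4025 sites, or 49.7% (48.1 to 51.2%), and 723, or 18% (16.8 to 19.2%), lay in the last 50 nt of the CDS. The DRACH A of last-exon CDS were split almost alike, with 14294 within 200 nt of the stop codon and 14661 farther upstream. More sites were closer to the stop codon than to the junction, 2557 of 4025 or 63.5% (62.0 to 65.0%). The same count was not made over all DRACH A, so no preference for the stop codon is read from it. Where the last exon also holds 5′ UTR, this adds to the distance from the junction.

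Distance from the junction went with a steep rise in the listed share. It was 2.43% (1.90 to 3.10%) in the first 25 nt of the last exon and 3.40% (2.73 to 4.23%) from 26 to 50 nt. From 51 to 100 nt it was 8.74% (7.92 to 9.65%), and from 101 to 150 nt 14.5% (13.3 to 15.9%). The highest value, 19.2% (18.1 to 20.4%), was found from 201 to 400 nt, after which it was 17.1% (16.0 to 18.2%) up to 800 nt and 13.1% (12.3 to 14%) beyond. Split at 100 nt, the share was 5.57% (497 of 8928) on the junction side and 16.1% (3232 of 20055) farther away, a ratio of 2.89 (95% interval on the log scale 2.64 to 3.17). GGACT, taken alone, rose from 11.2% (18 of 160) in the first 25 nt to 48.9% (150 of 307) from 201 to 400 nt, with a ratio of 1.89 (1.61 to 2.21) across 100 nt. Motifs were read in the genome, so the bases before a site 1 or 2 nt from the junction are intronic. Only 8 sites lay there, and from 3 to 25 nt the share was 2.42% (1.86 to 3.15%).

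**Figure D1:**
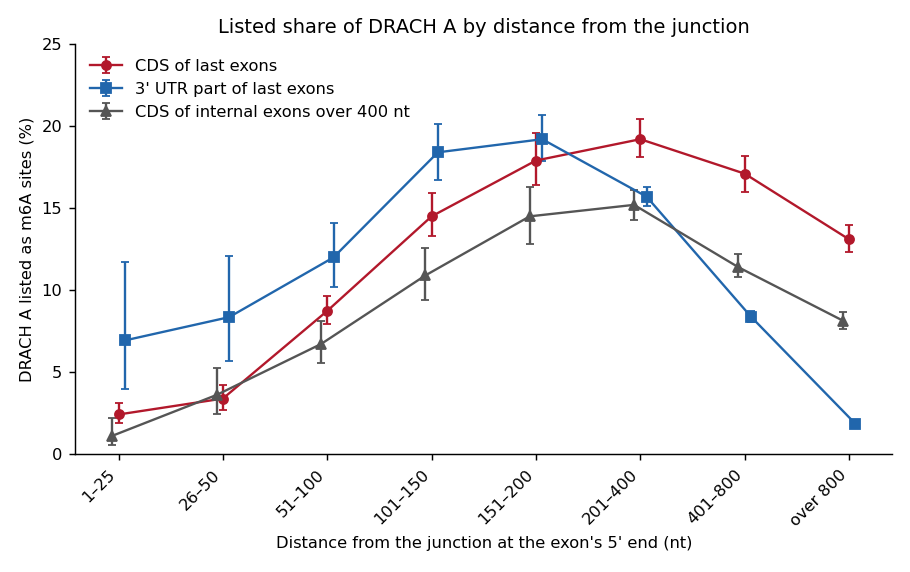
Percent of DRACH A listed as m6A sites (y axis) in bins of distance from the junction at the 5′ end of the exon (x axis, nt, bins of unequal width), for the CDS of last exons (circles), the 3′ UTR part of last exons (squares) and the CDS of internal exons over 400 nt (triangles), with 95% Wilson intervals. In last-exon CDS the share goes from 2.43% next to the junction to 19.2% at 201 to 400 nt, and long internal exons go from 1.13% to 15.2% over the same bins.

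Long internal exons had the same shape from either end. Counted from the upstream junction their share went from 1.13% (0.574 to 2.21%) in the first 25 nt to 15.2% (14.3 to 16.1%) at 201 to 400 nt, and counted from the downstream junction from 1.47% (0.823 to 2.61%) to 15.4% (14.5 to 16.4%). Beyond 800 nt from the upstream junction, last-exon CDS kept 13.1%, or 12.4% without Ahnak and Plec, while long internal exons had 8.15% (7.64 to 8.68%). Unlike last exons, long internal exons also hold positions near a downstream junction, with the low shares given above. In the part of the last exon after the stop codon, the share next to the junction was 6.94% (4.01 to 11.7%, 12 of 173 DRACH A), higher than in the CDS at this distance. It peaked at 19.2% (17.9 to 20.7%) at 151 to 200 nt and fell to 1.87% (1.78 to 1.95%) beyond 800 nt, against 13.1% in last-exon CDS.

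Over all DRACH A of last-exon CDS, the share varied less with distance to the stop codon. It was 13.4% (12.5 to 14.3%) in the last 50 nt, 12.7% (11.7 to 13.7%) at 51 to 100 nt, 13.0% (12.1 to 13.9%) at 101 to 200 nt and 15.2% (14.1 to 16.2%) at 201 to 400 nt. Farther upstream it was 13.4% (12.4 to 14.4%) at 401 to 800 nt, 11.4% (10.4 to 12.4%) at 801 to 1600 nt and 8.48% (7.38 to 9.73%) beyond. Within 200 nt of the stop codon 13.0% of DRACH A were listed and farther upstream 12.7%, a ratio of 1.02 (0.965 to 1.09).

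Because the last 200 nt of many coding sequences also hold the junction, both distances were then read together. Among DRACH A more than 100 nt from the junction, 18.6% (17.7 to 19.4%) were listed within 200 nt of the stop codon and 14.5% (13.9 to 15.1%) farther upstream. Among those up to 100 nt from the junction, the values were 5.94% (5.38 to 6.55%) and 4.68% (3.94 to 5.55%). Within 200 nt of the stop codon alone, the ratio across 100 nt from the junction was 3.13 (2.80 to 3.49), beside 2.89 in the whole set. When only DRACH A at least 200 nt from the junction were kept, the ratio for the stop codon became 1.37 (1.27 to 1.48). Ahnak and Plec supplied much of the far end: without them, the share beyond 1600 nt was 5.88% (101 of 1719) instead of 8.48% (184 of 2169).

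**Figure D2:**
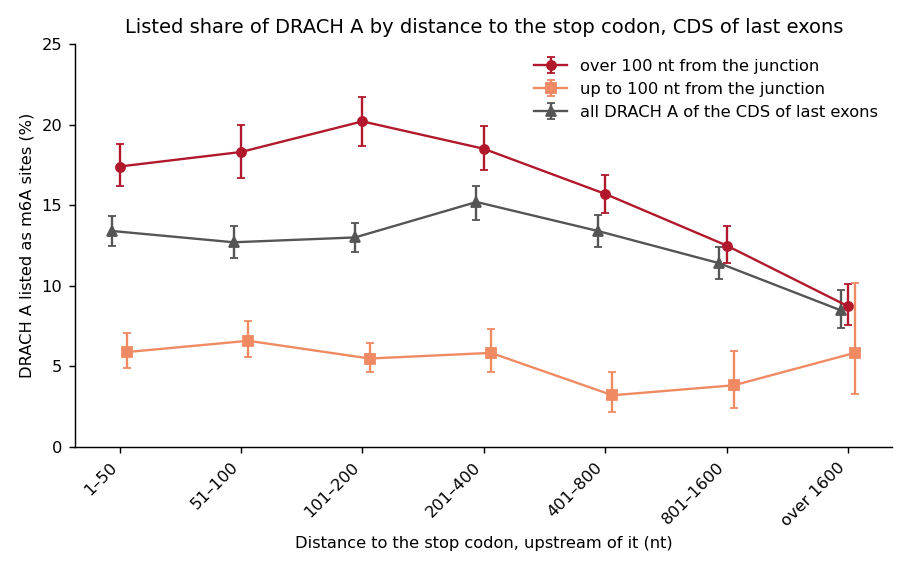
Percent of DRACH A in the CDS of last exons listed as m6A sites (y axis) in bins of distance upstream of the stop codon (x axis, nt, bins of unequal width), for DRACH A over 100 nt from the junction (circles), up to 100 nt from it (squares) and all of them (triangles), with 95% Wilson intervals. The share of all DRACH A stays between 12.7% and 15.2% over the last 400 nt, while the curve for DRACH A far from the junction lies above that for DRACH A close to it in every bin up to 1600 nt.

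How much CDS the last exon held went with the share as well. Last exons with up to 100 nt of CDS had 4.77% (3.87 to 5.86%) of their DRACH A listed, those with 101 to 200 nt had 9.17% (8.43 to 9.96%), and those with 401 to 800 nt had 17.5% (16.4 to 18.5%). Above 1600 nt, in 102 genes, it was 10.9% (10.1 to 11.8%). Where the start codon lay upstream, a CDS part of up to 100 nt lay wholly within 100 nt of the junction. These values were not split by distance from the junction. Scores, unlike counts, hardly moved along the exon. The median score of sites was 0.680 in the first 25 nt, 0.666 at 26 to 50 nt, 0.732 at 101 to 150 nt and 0.711 beyond 800 nt, and 0.723 in the last 50 nt before the stop codon.

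A group of 111 sites in 111 genes lay exactly 2 nt before the stop codon, the position of Terf2, Aars and Pptc7 above. Stop codons begin with T, so an AC that ends the CDS forms a motif ending in ACT. Of 285 DRACH A at this position 102 were listed, or 35.8% (30.4 to 41.5%). Motifs ending in ACT from 3 to 200 nt before the stop codon had 25.8% (24.5 to 27.1%). With both restricted to more than 100 nt from the junction, the values were 42.1% (35.5 to 49.0%) and 35.4% (33.5 to 37.3%), and GGACT alone had 54.2% (41.7 to 66.3%) and 48.0% (43.9 to 52.1%), with overlapping intervals.

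The stop codon itself split these positions. Before TGA 86 of 189 DRACH A were listed, or 45.5% (38.6 to 52.6%), before TAG 10 of 47, or 21.3% (12 to 34.9%), and before TAA 6 of 49, or 12.2% (5.73 to 24.2%), with overlapping intervals for TAG and TAA. The same letters were also read where they were not a stop codon. From 3 to 200 nt upstream, motifs ending in ACT and followed by GA had 39.4% (34.0 to 45.1%) listed, those followed by AG 18.5% (10.9 to 29.6%) and those followed by AA 10.6% (5.67 to 18.9%), again with overlapping intervals for AG and AA. Over all 16 pairs of following letters the share ran from 10.6% for AA to 40.9% (35.8 to 46.2%) for GT, with GA, CT at 37.5% (32.7 to 42.6%) and TT at 32.0% (27.1 to 37.3%) following GT. The model reads the bases around the site, and its part in these values was not tested. The 111 sites had scores from 0.501 to 0.940 with a median of 0.754, and 95 of them preceded TGA.

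DRACH held 3729 of the 4028 sites, or 92.6% (91.7 to 93.3%), and 92.4% (91.7 to 93.1%) of the other CDS sites. The most frequent motif was GGACT with 716 sites, followed by GGACA with 591, GAACT with 539 and AGACT with 484. Per motif present, the listed share was 39.8% (37.6 to 42.1%) for GGACT, 34.2% (31.9 to 36.5%) for GAACT, 26.3% (24.4 to 28.4%) for AGACT and 24.0% (22.4 to 25.8%) for GGACA. With the same first 4 letters, motifs ending in C were listed less than those ending in T or A: GGACC had 14% (12.6 to 15.5%), AGACC 3.05% (2.40 to 3.86%) and TGACC 0.853% (0.526 to 1.38%). In long internal exons GGACT had 34.3%, in the whole 3′ UTR of last exons 20.1%, and in short internal exons 4.36%. GAACT had the highest median score, 0.784, and GGACT 0.769. The model was given a window of 21 nt centred on the site and its place in the transcript, and its part in the shares by motif and region was not tested.

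**Figure D3:**
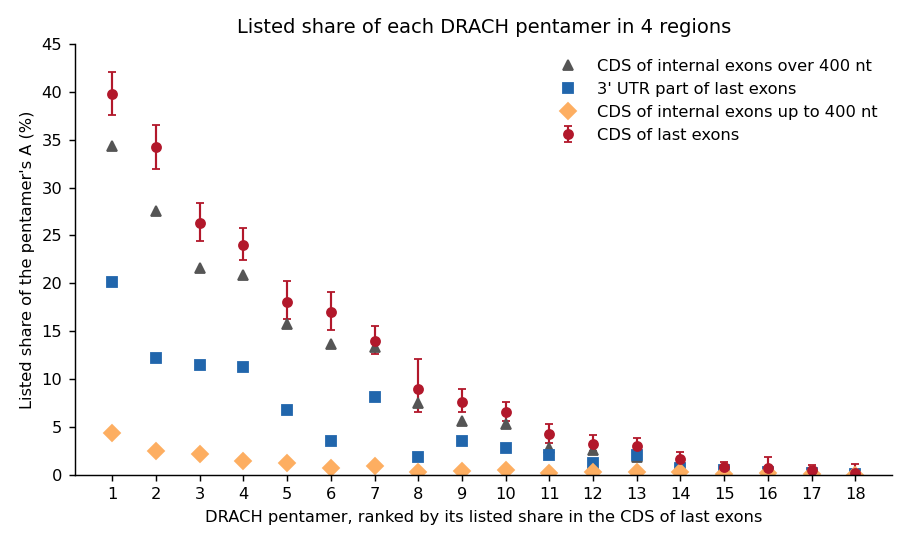
Percent of the A of each DRACH motif listed as sites (y axis) for the 18 DRACH motifs, ranked on the x axis by their share in the CDS of last exons (circles, with 95% Wilson intervals), beside internal exons over 400 nt (triangles), the 3′ UTR part of last exons (squares) and internal exons up to 400 nt (diamonds). The first ranks are GGACT at 39.8%, GAACT at 34.2% and AGACT at 26.3%, and in short internal exons GGACT is at 4.36%.

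The 299 sites outside DRACH departed from it mostly at the closing letter. In 153, or 51.2% (45.5 to 56.8%), a G closed the motif, and 108 of these were GGACG. A pyrimidine stood before the A in 75, most often as GTACT with 56 sites, C was missing after the A in 37, and C opened the motif in 34. Median scores were 0.664 for motifs closed by G and 0.550 where C was missing. The GGACG motifs with the best scores were those of Dcaf5, a substrate receptor of a ubiquitin ligase, at 0.934, of Cdkn2d, an inhibitor of cyclin-dependent kinases, at 0.912, of Fam98a at 0.899, of the translation initiation factor gene Eif1a at 0.895 and of Pck2, the mitochondrial phosphoenolpyruvate carboxykinase, at 0.882.

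Since these sites are all coding, each A also had a place in a codon. The second codon position held 1900 of 3726 DRACH sites in frame, or 51.0% (49.4 to 52.6%), the first 23.4% (22.0 to 24.8%) and the third 25.6% (24.3 to 27.1%). All DRACH A of the same coding parts were at 51.3%, 26.6% and 22.1%, so most of the bias to the second position was already in the motif's occurrence. The listed share was 11.3% (10.6 to 12%) at the first, 12.8% (12.3 to 13.3%) at the second and 14.9% (14.1 to 15.8%) at the third position. Within a single motif the positions did not separate: for GGACT the values were 44.0% (39.0 to 49.1%), 37.8% (34.9 to 40.8%) and 41.2% (36.5 to 46.0%), and for AGACT 26.2%, 25.8% and 27.6%.

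The 1704 genes were 36.4% (35.0 to 37.8%) of the 4686 genes with an exonic site. A single such site was found in 878 genes, or 51.5% (49.2 to 53.9%), 5 or more in 204 and 10 or more in 24, and these 24 genes held 389 sites, or 9.66% of the set. In 615 genes, or 36.1% (33.8 to 38.4%), every exonic site was of this kind. Another site of the set lay within 100 nt of 2277 sites, or 56.5% (55.0 to 58.1%), and within 5 nt of 91, or 2.26% (1.84 to 2.77%), counts that include the genes with many sites and were not set against the spacing of DRACH. Sites beyond the stop codon were counted in the same genes. Of the 1704 genes, 691 or 40.6% (38.2 to 42.9%) also had a 3′ UTR site within 200 nt of the stop codon, and these were 32.6% (30.7 to 34.7%) of the 2118 genes with such a 3′ UTR site. Over all 4686 genes with an exonic site, such a 3′ UTR site was found in 45.2% (43.8 to 46.6%). To be counted, a gene without a last-exon CDS site had to have an exonic site elsewhere, which raises this value. No order is therefore read from 40.6% and 45.2%.

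Ahnak, which encodes a very large scaffold protein, had most sites. Its last exon (chromosome 19, 9001699 to 9019196, plus strand, exon 5 of 5) holds 16623 nt of CDS with 381 DRACH A, of which 63 were listed, and 65 of its 67 exonic sites were in this CDS. They ran from 83 to 16366 nt from the junction, with scores from 0.502 to 0.945 and a median of 0.743. Plec, the cytoskeletal linker plectin, had 49 sites in 6213 nt of CDS of its last exon (chromosome 15, 76170974 to 76178385, minus strand, exon 33 of 33), where 44 of 128 DRACH A were listed, and 64 exonic sites in all. Large coding last exons were not always rich in sites. Gpatch8 had 5 sites among 64 DRACH A, and Ercc6l, a DNA helicase gene, 2 among 82.

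Among the other genes of the first 10, Tlr2, the receptor for bacterial lipoproteins, had 18 of its 19 exonic sites in this CDS, with 16 of 54 DRACH A listed, scores of 0.546 to 0.930 and distances of 162 to 2285 nt from the junction. Il10ra, the ligand-binding chain of the interleukin-10 receptor, had 14 sites in 909 nt, with 12 of 27 DRACH A listed, and the nearest to the stop codon was 89 nt away. Il17ra, a chain of the interleukin-17 receptor, had 14 sites in 1499 nt, with 14 of 31 DRACH A listed. Nrros, a membrane protein that binds latent TGF-β, had 15 sites, with 12 of 49 DRACH A listed, from 104 nt after the junction to 2 nt before the stop codon. The others were Dido1 with 16 sites, Arid1a, a subunit of BAF chromatin remodelling complexes, with 14, Urgcp with 14, and Ap5b1, a subunit of the adaptor complex AP-5, with 14. In Arid1a the site nearest to the junction was at 538 nt, while Ap5b1 had one at 39 nt. Kbtbd11 also had 14 sites, and 4 more in its 3′ UTR, and stands outside the first 10 because ties went to the higher mean score (0.683, beside 0.704 in Ap5b1).

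**Figure D4:**
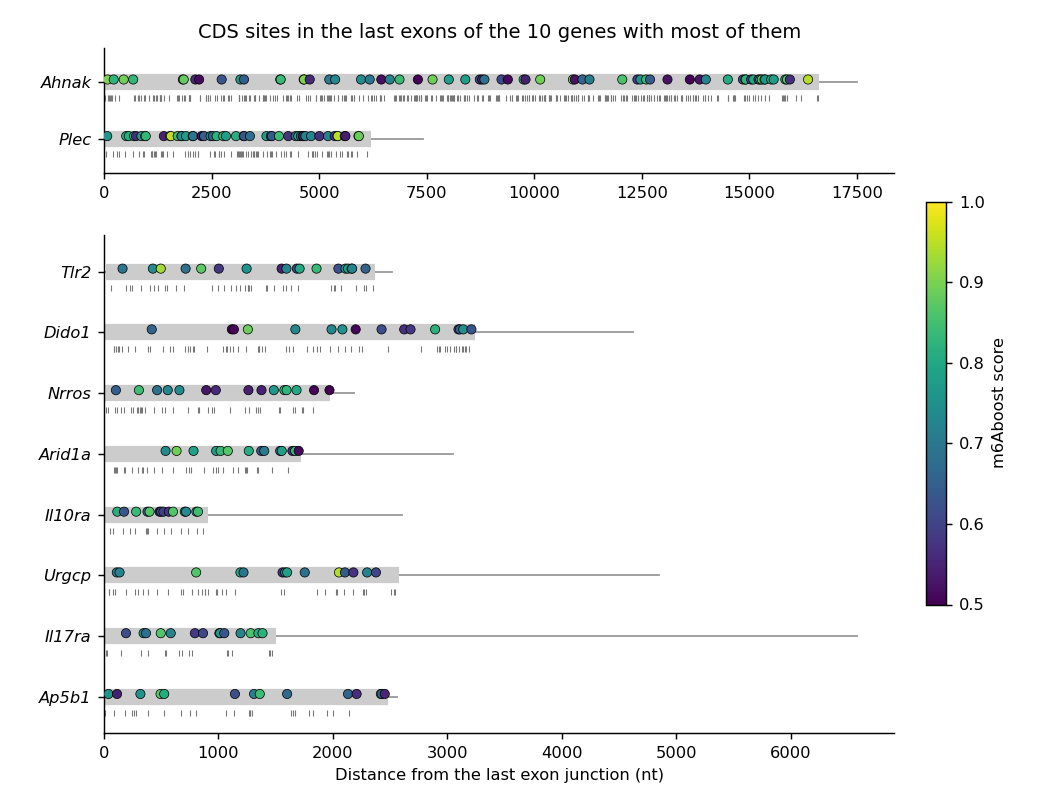
Last exons of the 10 genes with most CDS sites there (Kbtbd11, tied at 14 sites with the last of them, is not drawn), shown to scale as distance from the last exon junction (x axis, nt, with separate scales for the upper and lower panel); thick grey bars are CDS and thin lines UTR, circles are sites coloured by m6Aboost score, and ticks below are DRACH A of the CDS that were not listed. The sites of Tlr2 run from 162 to 2285 nt and those of Arid1a from 538 to 1701 nt, and unlisted DRACH A lie among them in every gene.

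The highest scores belonged to other genes. Peak1, a pseudokinase gene, and Slc52a2, a riboflavin transporter gene, reached 1.00, at 208 and 188 nt from the junction and 954 and 23 nt from the stop codon. Fcna, which encodes ficolin A, a lectin that activates complement, followed with 0.983, and Serinc3 and Nsun2, an RNA cytosine methyltransferase gene, with 0.972 each. The scaffold gene Slc9a3r1 had 0.970, the small GTPase gene Rab28 0.965, Pnrc1 0.963, Zfp131 0.959 and the kinase gene Tesk1 0.958. All of their motifs ended in ACT. Of the 10 sites, 4 lay within 100 nt of the junction, those of Fcna at 73 nt, Serinc3 at 95 nt, Nsun2 at 65 nt and Rab28 at 52 nt. At the lower end, the lowest-scored sites of Pdik1l, of the RNA polymerase I subunit gene Cd3eap and of Depdc5, a subunit of GATOR1, had 0.50, while other sites of these genes reached 0.776, 0.782 and 0.658. Nearest to the junction were sites in Ikbkb, the kinase that phosphorylates IκB, and Ncf1, a subunit of the phagocyte NADPH oxidase, both at 1 nt with scores of 0.572 and 0.526, and in Commd3 at 2 nt with 0.724. In all, 8 sites lay 1 or 2 nt from the junction, including that of Tubb6 at 2 nt, and ties went to the higher score.

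Gene families were read against the 36.4% of genes with exonic sites and the listed share of 12.9% over all last-exon CDS. Among genes with a Zfp symbol, most of which encode DNA-binding proteins with C2H2 zinc fingers, often in 1 large last exon, 54 of the 80 with an exonic site had a last-exon CDS site (67.5%), yet their listed share was 8.85% (7.49 to 10.4%), 127 of 1435 DRACH A. Zfp746 had 8 sites, Zfp263 7 and Zfp36, a CCCH-type protein that binds AU-rich elements, 6. Zfp646, with 17 CDS sites and 98 nt of CDS in its last exon, had none there. The Zbtb genes, transcription regulators with a BTB domain, had such sites in 12 of 19 (63.2%), with a share of 11.7% (8.83 to 15.2%). Zbtb22 and Zbtb18 had 11 sites each, and all of their exonic sites were of this kind. Trim genes, mostly ubiquitin ligases, had them in 12 of 16 (75.0%), led by Trim56 with 9, at 15.5% (11.2 to 21.1%). Klf genes had them in 2 of 8, Klf10 with 2 sites and Klf4 with 1, and 3 of 27 DRACH A were listed, or 11.1% (3.85 to 28.1%). Klf13 had 13 sites, all of them in its 3′ UTR. Klhl genes, adaptors of ubiquitin ligases, had them in 3 of 9, at 6.45% (2.54 to 15.4%). The intervals of the Zbtb, Trim, Klf and Klhl genes hold the 12.9% over all last-exon CDS.

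Among Toll-like receptors and their adaptors 8 of 12 genes had a last-exon CDS site (66.7%), and 53 of their 86 exonic sites were of this kind, at a listed share of 11.7% (8.97 to 15.2%). After Tlr2 came Tlr7, a receptor for single-stranded RNA, with 10 sites among 85 DRACH A, the co-receptor Cd14 with 9, and the adaptor genes Ticam1 with 7 and Ticam2 with 3. Adaptors and kinases with little CDS in the last exon had none: Tirap with 17 nt and 6 exonic sites, Irak1 with 59 nt and 4, and Myd88, whose last exon holds no CDS, with 4. G protein-coupled receptors of macrophages, whose coding sequence often lies in 1 exon, had such sites in 8 of 8 genes, at 21.5% (15.3 to 29.4%, 28 of 130 DRACH A). Genes were counted for having an exonic site, so C5ar1, with all of its exonic sites in last-exon CDS, had to be among them. Both the 8 of 8 and the share are thus in part set by how genes were kept. Gpr183, Cx3cr1 and C5ar1, receptors for oxysterols, fractalkine and complement C5a, had 7 each, and Gpr84 had 5. In Cx3cr1 the CDS sites stood beside 12 in the 3′ UTR, while C5ar1 had 7 exonic sites and none in the 3′ UTR.

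Signalling inhibitors varied from gene to gene. In the SOCS family, which restrains cytokine receptors, Socs5 had 9 sites and Socs6 4, each with 34 DRACH A, while Socs3, with 15 DRACH A in the last-exon CDS, had 0 there and 7 sites in its 3′ UTR. The family's listed share was 15.7% (9.39 to 25%). Dual-specificity phosphatases had a site in 5 of 6 genes with an exonic site, at 16.3% (8.12 to 30.0%), 7 of 43 DRACH A, with 3 of 3 DRACH A listed in Dusp3, between 4 and 32 nt from the stop codon, and with a site 13 nt from the junction in Dusp4. Dusp6 had 7 DRACH A and none listed. Immediate early genes had one in 5 of 6 with an exonic site and several exons, at 16.7% (8.32 to 30.6%), 7 of 42 DRACH A. Fosl2 had 3 sites, while Fos, Mafk, Atf3 and Mafg had 1 each. Ier3 had 2 exonic sites and none here. Jun, Junb, Jund, Ier2 and Ier5 have 1 exon and fall outside the rule. Of the macrophage transcription factors 7 of 14 had one, at 17.6% (11.1 to 26.7%), with 7 sites in Bhlhe40, 4 in Mitf and 2 each in Stat6 and Rela. The intervals of these families hold the 12.9% over all last-exon CDS. Irf8 and Nfkb1 had 4 exonic sites each and none in last-exon CDS.

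The label of the cells was checked against marker genes. Of 10 macrophage markers 5 had an exonic site, Csf1r, Lyz2, Spi1, Cd14 and Ptprc, beside 21.8% of all 21951 protein-coding genes, and Spi1, Cd14 and Ptprc had one in last-exon CDS. Of the 15 markers of embryonic stem cells, T cells, B cells, hepatocytes, fibroblasts and cardiomyocytes, between 2 and 4 for each type, 0 had an exonic site. These lists are too short for the counts to settle the label. A gene without a site may be unexpressed or unmethylated, and in this list these cannot be told apart.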

How the data were processed

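The authors mapped miCLIP2 reads to GRCm38 with STAR 2.7.3a, removed duplicates with UMI-tools 1.0.0, called peaks in each of 3 replicates, kept peaks found in at least 2, and deposited the A positions that m6Aboost gave a score over 0.5, as 1 list for the cell line. The deposited score is the only measured column. Starts were read as 0-based, and all 19301 sites were then at A. The series design text calls the line human, while the organism label says mouse. Annotation was GENCODE M21, where the authors used M23. In all, 54 sites in last-exon CDS that also lay in the CDS of another gene were left out. Shares carry 95% Wilson intervals and ratios Katz intervals, and no test was run. The binning was tested on simulated lists. Named genes were the 10 with most sites, the 10 highest scores, the 5 longest coding last exons, extremes of either distance, the 5 best sites outside DRACH, the lowest scores, and leading genes of 11 gene lists. A gene that this rule takes is not reported here. The set and the lists were chosen with earlier results of these data known. Calculations used Python 3.11.15, pandas 2.3.3, NumPy 2.4.6, SciPy 1.17.1 and pysam 0.24.0.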

Additional observations from a re-analysis of the deposited data

How the results depend on the processing

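No paired analysis was possible because the deposited list joins all 3 replicates of the untreated cells, which also leaves no replicate to omit. Of 85 values recomputed under alternatives, 53 stayed within the interval of the reported value (for the count of sites, within 1.5 times it) and 32 moved. The alternatives without Ahnak and Plec, those with 1 site per gene and exon class, and every value for the 100-nt split at the junction were chosen after seeing the data.

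With a minimum score of 0.7, 2120 sites remained, 43.9% of CDS sites were in last exons, 11.8% lay within 100 nt of the junction, 96.7% were at DRACH, 8.21% of DRACH A were listed, counted in genes that kept a site at this score, and the stop codon ratio was 1.10. With a minimum of 0.9 these were 173 sites, 44.4%, 16.2%, 98.8% and 2.18%, and the junction ratio fell to 2.01 (1.34 to 3.00). The share of CDS sites in last exons was 45.7% with transcripts passing the support filter and 36.4% when every protein-coding transcript had to place the site in last-exon CDS. With 1 site per gene and exon class there were 1704 sites, 43.7% of CDS sites in last exons, 68.3% within 200 nt of the stop codon, 21.8% within 100 nt of the junction and 95.5% at DRACH. Windows of 100 and 400 nt held 31.5% and 68.0% of sites before the stop codon, and windows of 50 and 200 nt held 3.67% and 34.5% after the junction. RRACH held 82.8% and AC 99.1% of sites. GGACT had a listed share of 39.8%, and transcripts with at least 3 exonic sites 16.7%. The stop codon ratio was 1.16 with a window of 400 nt and 1.37 at least 200 nt from the junction, and stood below 1 with GGACT (0.971) and the longest spliced transcript (0.994), with intervals that hold 1. The junction ratio was 5.15 and 1.73 with windows of 50 and 200 nt and 1.89 with GGACT. The cause was not tested where the alternative's own construction does not give it.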

Other observations

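Across the autosomes, sites in last-exon CDS made up between 16.5% of exonic sites on chromosome 10 and 27.8% on chromosome 19, which carries Ahnak, with 24.1% on chromosome X (48 of 199). Of the 4028 sites, 3527 or 87.6% (86.5 to 88.5%) lay in last-exon CDS of every protein-coding transcript that held them in an exon, and 3878 or 96.3% (95.6 to 96.8%) lay in the span of a single protein-coding gene. Stop codons themselves held DRACH A where TGA or TAA was followed by C, and 50 of 797 were listed, or 6.27% (4.79 to 8.18%). Scores of at least 0.9 were reached by 4.29% of sites in last-exon CDS and 15.4% of 3′ UTR sites of last exons within 200 nt of the stop codon.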
